A study of Mus musculus with 6 samples.

Results

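The MHC class I antigen presentation genes H2-K1, H2-D1, B2m, Tap1, Tap2, Tapbp, Nlrc5, Psmb8, Psmb9 and Psmb10 were followed in mouse liver after crizotinib. They were taken by gene name from the deposited gene table, which gave 10 genes of 26123. The livers came from ICR mice, an outbred stock, in 3 animals labelled crizotinib and 3 animals labelled control. Crizotinib blocks the receptor tyrosine kinases ALK, MET and ROS1, and the series calls the experiment a liver injury model. All animals had 7 days of adaptation, the stated dose was 300 mg/kg of crizotinib with saline for the other group, and liver was collected 1 week after dosing. Read literally, the series' design text has the normal group receiving crizotinib, the reverse of the sample labels. Groups here follow each sample's treatment label, and under the literal reading every fold change would have the opposite sign. Age and sex are not given in the labels, and nothing beyond the random selection of 3 mice per group ties the libraries to litters or batches.

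MHC class I molecules are carried by nearly all nucleated cells and show peptides from proteins made inside the cell to CD8+ T cells. Proteasomes cut those proteins, the TAP transporter moves the peptides into the endoplasmic reticulum, and the loading complex places them on a heavy chain paired with the light chain B2m. Interferon-gamma is known to induce the pathway through IRF1 and through NLRC5, a transactivator that acts at class I promoters with RFX, CREB and NF-Y proteins. Hepatocytes carry little class I at rest, and in bulk liver Kupffer cells, endothelial cells and lymphocytes add to the signal.

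Levels are given as CPM, counts scaled to library depth with TMM factors, and as the deposited FPKM, which is also scaled by gene length, where genes are compared with each other. The 6 libraries held between 51123361 and 67947970 counts. Mitochondrially encoded genes took 5.53% to 14.4% of counts in crizotinib libraries and 7.47% to 44.5% in control libraries, with the highest share in control replicate 1. All 10 genes passed the filter on low counts, with 275 to 214601 counts in any library. Where 3 values are given for a group, they are replicates 1, 2 and 3 in that order. Every test below is edgeR's quasi-likelihood test over 16492 genes with Benjamini-Hochberg adjustment unless another is named, and fold changes set crizotinib over control. Nothing in the labels says whether animals were housed or processed together, so p-values measure the spread between these samples.

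None of the 10 genes passed the test between crizotinib and control livers. With all 6 libraries edgeR called 0 of 10 at an adjusted p below 0.05, against 0.340% of all tested genes in either direction and 0.249% lower, and the adjusted p ranged from 0.298 to 0.994. DESeq2 also called 0 of 10, against 5.75% in either direction, and 3.06% lower, of the genes for which it gave an adjusted p. At an unadjusted p below 0.05 there were 2 genes, B2m and Psmb8, with lower estimates in crizotinib livers, where 7.25% of all tested genes were lower at that level. The estimate was below 0 for 8 of the 10 and above 0 for Nlrc5 and H2-D1. The median log2 fold change was -0.35, next to -2.7e-05 over all genes tested.

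The libraries of the crizotinib group were far apart for this pathway. In 6 of the 10 genes, H2-K1, B2m, Tap1, Psmb8, Psmb9 and Psmb10, crizotinib replicates 1 and 2 lay below every control, which held for 25.1% of all tested genes. Crizotinib replicate 3 lay within or above the controls for H2-K1, Tap1, Psmb9 and Psmb10 and just below them for Psmb8. The groups did not overlap for B2m and Psmb8, 2 of 10 genes, where 10.3% of all tested genes were lower without overlap and 21.0% did not overlap in either direction. H2-D1, Tap2, Tapbp and Nlrc5 had overlapping groups with no such split. The description by replicates 1 and 2 was chosen after the values were seen.

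**Figure D1:**
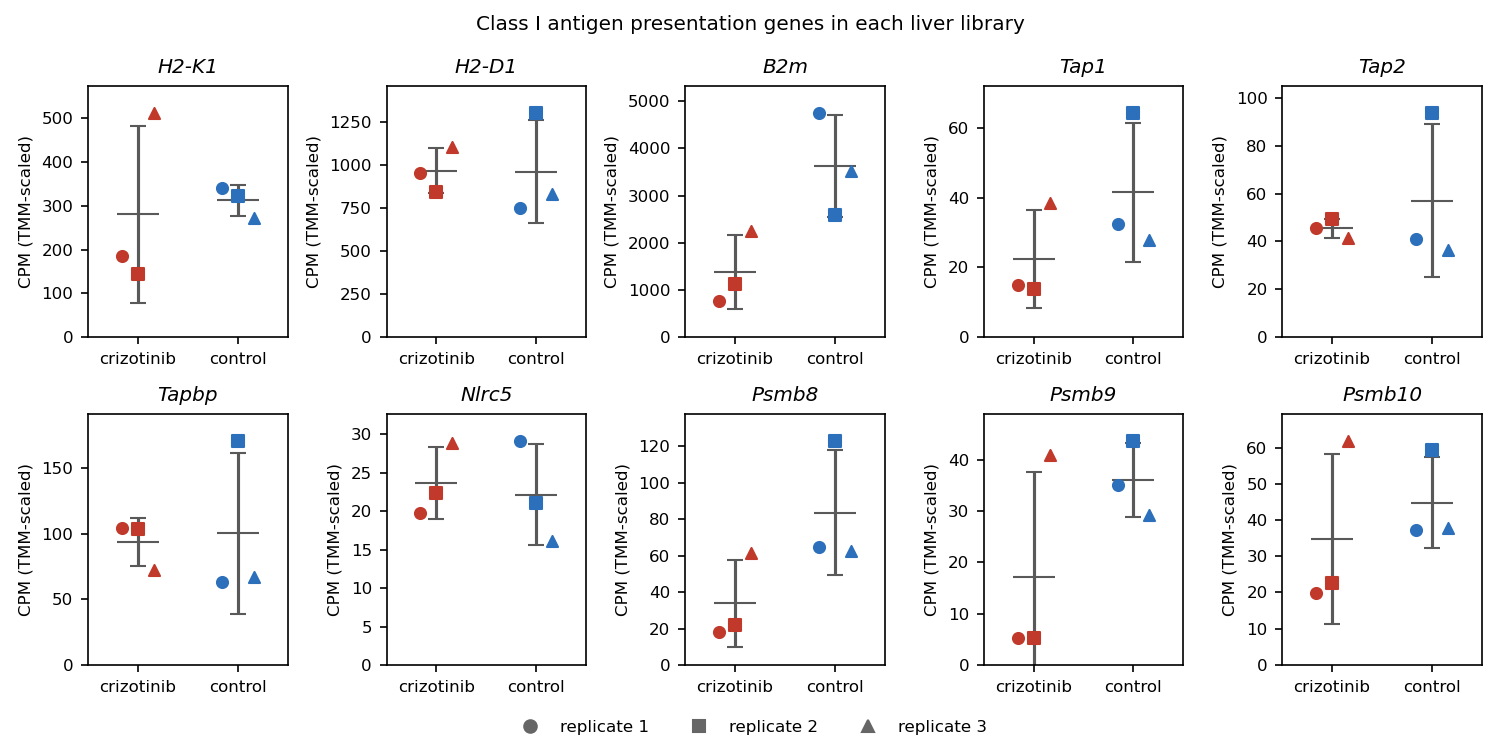
Level of each of the 10 genes in CPM (linear axis from 0) in the 3 crizotinib and 3 control libraries, with marker shape for the replicate number; the grey dash and bars are the group mean and SD (n = 3 each), and a bar that would reach below 0 is cut there. Crizotinib replicates 1 and 2 sit below every control for B2m, Psmb8, Psmb9, Psmb10, Tap1 and H2-K1, and crizotinib replicate 3 is also below every control for B2m and Psmb8 alone.

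Without crizotinib replicate 3, edgeR called 2 of the 10 genes, Psmb8 and Psmb9, both lower, where 8.83% of all tested genes were called and 4.72% were called lower. Psmb9 then had a log2 fold change of -2.78 at an edgeR adjusted p of 0.00480 and Psmb8 of -2.08 at an edgeR adjusted p of 0.0250. The members' median was -1.02 without that library. Leaving out any one of the other 5 libraries gave 0 called members by edgeR. With control replicate 1 also left out, a setting added after the data were seen, 3 were called, where 10.3% of tested genes were called and 5.52% were called lower: Psmb9 and Psmb8 again, and Psmb10, with a log2 fold change of -1.21 at an edgeR adjusted p of 0.0496.

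**Figure D2:**
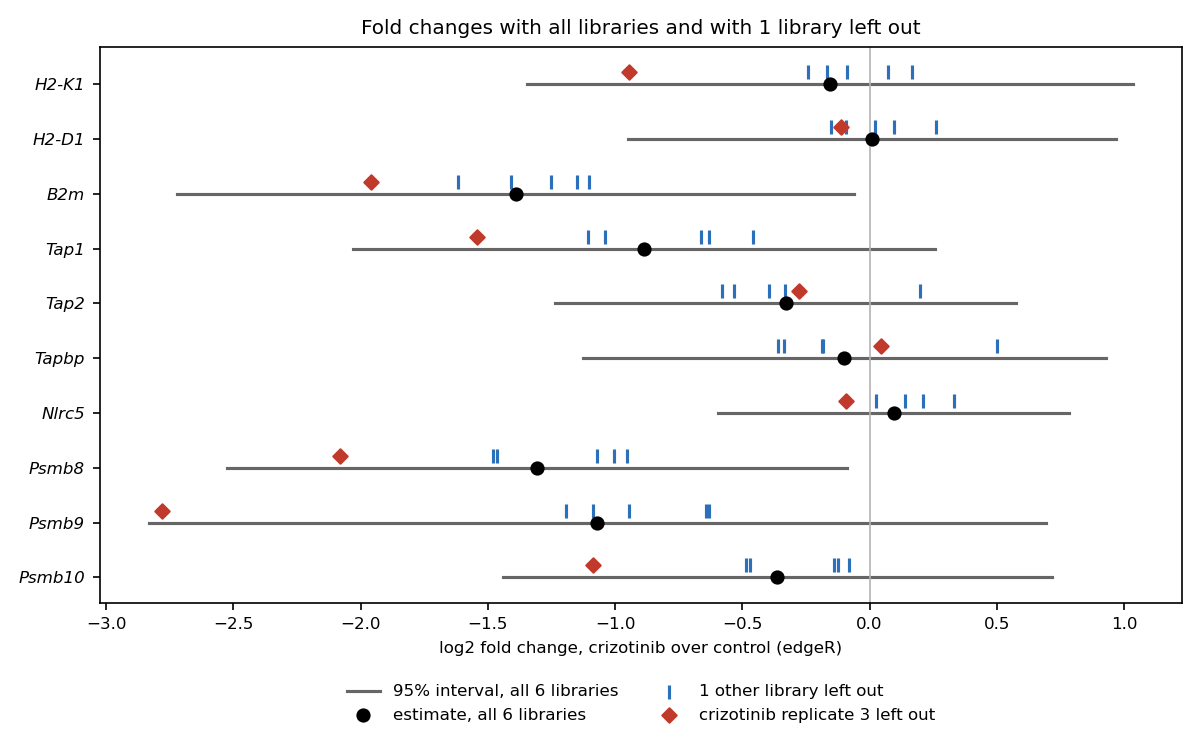
Log2 fold change of each gene, crizotinib over control, by edgeR; black points and grey lines are the estimate and its 95% interval with all 6 libraries, blue ticks are fits with 1 other library left out, and red diamonds are fits without crizotinib replicate 3. The red diamonds lie farthest left for B2m, Tap1, H2-K1 and the 3 Psmb genes, reaching -2.78 for Psmb9, while those of H2-D1, Tap2, Tapbp and Nlrc5 stay near the estimate with all libraries.

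Promoter sequences are shown for 4 genes, to set the similar upstream sequences of H2-K1 and H2-D1, of which H2-K1 alone was low in crizotinib replicates 1 and 2, beside those of B2m and of the Tap1 and Psmb9 pair. RefSeq promoter windows (assembly GRCm38.p6) were matched for 8 of the 10 genes, all but Tap2 and Nlrc5. Each line holds the 250 bases before the annotated start, 5′ to 3′ on the gene's strand, with motif matches in capitals.
H2-K1, chr17:34000348-34000597, minus strand: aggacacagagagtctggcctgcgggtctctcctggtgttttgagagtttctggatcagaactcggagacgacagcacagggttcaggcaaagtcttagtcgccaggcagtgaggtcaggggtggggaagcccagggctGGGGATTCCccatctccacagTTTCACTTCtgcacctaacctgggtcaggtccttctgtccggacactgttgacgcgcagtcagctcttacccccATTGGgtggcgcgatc
H2-D1, chr17:35262844-35263093, plus strand: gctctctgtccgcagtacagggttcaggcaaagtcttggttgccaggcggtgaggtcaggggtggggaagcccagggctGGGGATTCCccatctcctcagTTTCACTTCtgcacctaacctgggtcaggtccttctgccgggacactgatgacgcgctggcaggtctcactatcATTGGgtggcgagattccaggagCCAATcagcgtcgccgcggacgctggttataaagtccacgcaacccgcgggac
B2m, chr2:122147437-122147686, plus strand: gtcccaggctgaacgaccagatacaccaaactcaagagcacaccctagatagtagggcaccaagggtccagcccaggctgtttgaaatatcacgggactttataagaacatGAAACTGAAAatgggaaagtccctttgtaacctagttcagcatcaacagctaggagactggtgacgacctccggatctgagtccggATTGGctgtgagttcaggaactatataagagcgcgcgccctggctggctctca
Tap1, chr17:34187306-34187555, plus strand: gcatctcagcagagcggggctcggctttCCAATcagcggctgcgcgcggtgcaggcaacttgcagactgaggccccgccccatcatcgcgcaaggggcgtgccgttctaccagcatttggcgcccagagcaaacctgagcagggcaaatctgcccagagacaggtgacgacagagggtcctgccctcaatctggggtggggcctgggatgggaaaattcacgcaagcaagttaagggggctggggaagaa
The capitals mark matches, on either strand, to the interferon response element core (GAAA, any 2 bases, GAAA) and to its shorter form GAANNGAAA, to CCAAT, the core of the Y box that NF-Y binds, and to GGGGATTCC, part of the NF-kappa-B site of the class I enhancer.

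The 250 bases of H2-K1 and H2-D1 had 166 identical letters in 190 aligned, 87.4%, and the same GGGGATTCC and GAANNGAAA matches at the same spacing. GGGGATTCC was in 0.213% of 32851 promoter windows of that length and GAANNGAAA in 6.31%, and both were added after the sequences were seen. The interferon response element core was found in the B2m window alone among the 8 member windows, against 2.98% of all windows. The windows sit at RefSeq starts. Those of H2-D1, Tapbp, Psmb8, Psmb9 and Psmb10 lie well away from the starts in the deposited table, for Tapbp at 33919478 against 33915899. Sequence before the deposited table's starts was not searched separately, so a missing match holds for these windows only. CCAAT was in 6 of the 8 member windows, those of H2-K1, H2-D1, B2m, Tap1, Tapbp and Psmb9, against 33.8% of all windows. The Tap1 and Psmb9 matches are the same genomic bases read on opposite strands, so they are not separate sites. The RefSeq starts of Tap1 and Psmb9 lie 226 bases apart and the genes run in opposite directions, whereas the gene spans of the deposited table, with a start of Psmb9 further upstream, overlap at their 5′ ends. By the RefSeq starts, the Tap1 letters above hold most of the Psmb9 window on the other strand. A match in these letters is a description and not a binding site.

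H2-K1 and H2-D1 encode the classical heavy chains, the peptide-binding part of the molecule. H2-K1 (ENSMUSG00000061232, chromosome 17, 33996017 to 34000347, minus strand) had 186, 143 and 512 CPM in crizotinib livers, against 341, 322 and 273 CPM in control livers. Crizotinib replicate 3 was the highest of the 6 libraries and crizotinib replicates 1 and 2 were the lowest, so the groups overlapped. The log2 fold change was -0.16 ± 0.52 (SE) at an edgeR adjusted p of 0.903, with a 95% interval of -1.35 to 1.03. H2-D1 (ENSMUSG00000073411, chromosome 17, 35262730 to 35267499, plus strand) had 951, 846 and 1105 CPM in crizotinib livers, against 749, 1303 and 833 CPM in control livers. Its groups overlapped throughout, with a log2 fold change of 0.0088 ± 0.42 (SE) at an edgeR adjusted p of 0.994 and a 95% interval of -0.95 to 0.97. Per length, the ratio of H2-D1 to H2-K1 FPKM was 5.84, 6.74 and 2.46 in crizotinib livers, against 2.50, 4.60 and 3.47 in control livers. The ratio was thus highest in crizotinib replicates 1 and 2 and lowest in crizotinib replicate 3.

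Single values of class I heavy chains are uncertain. Of the distinct 50-base stretches in their GENCODE M21 transcripts, 9.63% for H2-K1 and 12.8% for H2-D1 also occur in another gene, and reads of such stretches can be counted for the wrong gene. The assembly carries the alleles of C57BL/6J, class I genes are highly polymorphic, and how well reads of ICR alleles matched it was not tested. Summed over 14 H2 heavy chain genes, including the H2-Q and H2-T genes, the level was 2061, 2005 and 3214 CPM in crizotinib livers, against 2299, 3365 and 2357 CPM in control livers. The sums overlapped between the groups, with crizotinib replicates 1 and 2 lowest and control replicate 2 highest.

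B2m, the light chain that stabilises every classical heavy chain, had the highest FPKM of the 10 genes in each library. B2m (ENSMUSG00000060802, chromosome 2, 122147686 to 122153083, plus strand) had 771, 1119 and 2253 CPM in crizotinib livers, against 4753, 2599 and 3514 CPM in control livers. Every crizotinib library was below every control library, with means of 1381 ± 775 CPM in crizotinib livers and 3622 ± 1081 CPM in control livers (SD, n = 3 each). The log2 fold change was -1.39 ± 0.58 (SE) at an edgeR adjusted p of 0.310, with a 95% interval of -2.72 to -0.060. The unadjusted p was 0.0425, and DESeq2 gave an adjusted p of 0.0502, which also misses the threshold. The order of the groups was the same in FPKM, with 837, 1159 and 2880 FPKM in crizotinib livers, against 3307, 3444 and 3656 FPKM in control livers. The B2m window printed above holds GAAACTGAAA, the only match to the interferon response element core among the 8 member windows.

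The level of the light chain relative to the heavy chains was lower in each crizotinib library. The ratio of B2m FPKM to the sum of H2-K1 and H2-D1 FPKM was 2.08, 3.46 and 4.34 in crizotinib livers, against 13.6, 4.92 and 9.83 in control livers. The groups did not overlap, though crizotinib replicate 3 and control replicate 2 were close. On the log2 scale the ratio averaged 1.65 ± 0.55 in crizotinib libraries and 3.12 ± 0.75 in control libraries (SD, n = 3 each). A ratio within a library does not depend on the scaling between libraries, but it can still differ with the make-up of a library. The highest ratio was that of control replicate 1, where mitochondrially encoded genes took 44.5% of counts. The log2 difference between the groups was -1.47 with all libraries and -1.14 without control replicate 1. The part of that library's make-up in the ratio was not tested. Over all 14 H2 heavy chain genes, B2m stood at 1.32, 2.05 and 2.60 times their FPKM in crizotinib livers, against 7.68, 2.80 and 5.58 times in control livers. A permutation of 3 against 3 libraries cannot give a p below 0.1, so no p is given for these ratios.

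Psmb8, Psmb9 and Psmb10 encode the catalytic subunits that interferon-gamma adds to the proteasome in place of the products of Psmb5, Psmb6 and Psmb7, which makes the immunoproteasome. Psmb8 (ENSMUSG00000024338, chromosome 17, 34197721 to 34201454, plus strand) had 17.9, 22.1 and 61.4 CPM in crizotinib livers, against 64.9, 123 and 62.8 CPM in control livers. All 3 crizotinib libraries were lower, replicate 3 by a small margin, and in FPKM the groups overlapped, with 19.9 FPKM in crizotinib replicate 3 against 11.5 FPKM in control replicate 1. The log2 fold change was -1.31 ± 0.53 (SE) at an edgeR adjusted p of 0.298, with a 95% interval of -2.53 to -0.089. Psmb9 (ENSMUSG00000096727, chromosome 17, 34181987 to 34187764, minus strand) had 5.31, 5.33 and 40.9 CPM in crizotinib livers, against 35.1, 43.8 and 29.4 CPM in control livers. Crizotinib replicates 1 and 2 were thus far below all other libraries and crizotinib replicate 3 was among the controls. Its log2 fold change was -1.07 ± 0.76 (SE) at an edgeR adjusted p of 0.539. Psmb10 (ENSMUSG00000031897, chromosome 8, 105935735 to 105938104, minus strand) had 19.95, 22.7 and 61.9 CPM in crizotinib livers, against 37.1, 59.4 and 37.9 CPM in control livers. Crizotinib replicate 3 was the highest of the 6 libraries for this gene, and the log2 fold change was -0.36 ± 0.47 (SE) at an edgeR adjusted p of 0.745.

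The constitutive counterparts were closer together across the libraries. Psmb5 had a log2 fold change of -0.19 at an edgeR adjusted p of 0.763, Psmb6 of -0.17 at an edgeR adjusted p of 0.844 and Psmb7 of -0.16 at an edgeR adjusted p of 0.869. Summed, the 3 inducible genes had 43.1, 50.1 and 164 CPM in crizotinib livers, against 137, 226 and 130.1 CPM in control livers. The 3 constitutive genes summed to 123, 142 and 212 CPM in crizotinib livers, against 177, 166 and 193 CPM in control livers. In both sums, crizotinib replicates 1 and 2 were below every control. Crizotinib replicate 3 was highest in the constitutive sum, and control replicate 2 was highest in the inducible sum. Crizotinib replicates 1 and 2 were also below every control for Psmb5 and Psmb6, but not for Psmb7. As a share of the FPKM of all 6 catalytic subunit genes, the inducible genes made up 21.6%, 21.8% and 36.6% in crizotinib livers, against 33.2%, 49.4% and 32.3% in control livers. The mean share was 26.7 ± 8.59% in crizotinib libraries and 38.3 ± 9.61% in control libraries (SD, n = 3 each), and the groups overlapped through crizotinib replicate 3. Within the pair of Psmb9 and Psmb6, the ratio of FPKM was 0.0412, 0.0370 and 0.177 in crizotinib livers, against 0.148, 0.294 and 0.165 in control livers.

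**Figure D3:**
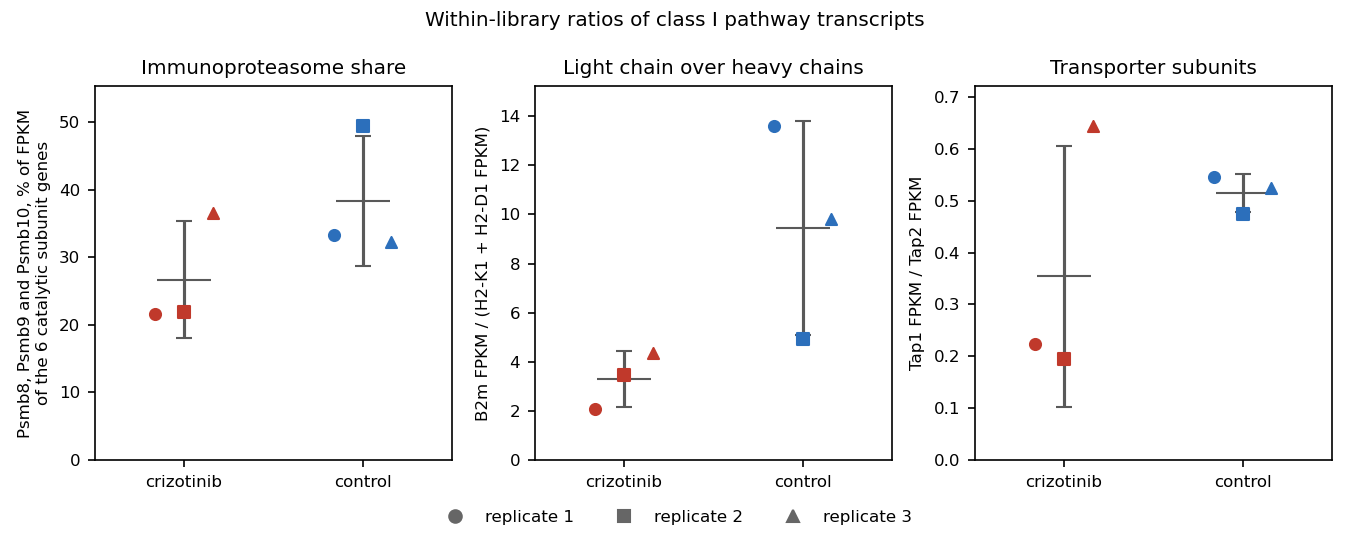
Ratios of FPKM within each library (linear axes from 0) for the share of inducible catalytic proteasome subunits in percent, B2m over H2-K1 plus H2-D1, and Tap1 over Tap2, in crizotinib and control libraries; the grey dash and bars are the mean and SD (n = 3 each). The light chain ratio is at most 4.34 in crizotinib libraries and at least 4.92 in control libraries, while the other ratios are low in crizotinib replicates 1 and 2 alone.

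Tap1 and Tap2 encode the paired chains of the peptide transporter, and their levels had different patterns. Tap1 (ENSMUSG00000037321, chromosome 17, 34187553 to 34197225, plus strand) had 14.9, 13.9 and 38.6 CPM in crizotinib livers, against 32.4, 64.3 and 27.9 CPM in control livers. Crizotinib replicates 1 and 2 were below every control and crizotinib replicate 3 was inside their range. The log2 fold change was -0.89 ± 0.50 (SE) at an edgeR adjusted p of 0.436, with a 95% interval of -2.03 to 0.26. Tap2 (ENSMUSG00000024339, chromosome 17, 34203527 to 34216321, plus strand) had 45.7, 49.2 and 41.4 CPM in crizotinib livers, against 40.95, 93.7 and 36.6 CPM in control livers. Its crizotinib libraries were close together and inside the control range, with a log2 fold change of -0.33 ± 0.39 (SE) at an edgeR adjusted p of 0.722. The sign of the Tap2 estimate turned without control replicate 2, where it was 0.20. The ratio of Tap1 to Tap2 FPKM was 0.224, 0.195 and 0.644 in crizotinib livers, against 0.546, 0.474 and 0.525 in control livers. Tap1 and its divergent neighbour Psmb9 were thus both low in crizotinib replicates 1 and 2, where Tap2 was not.

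Tapbp encodes tapasin, which bridges the transporter and the heavy chain. Tapbp (ENSMUSG00000024308, chromosome 17, 33915899 to 33926197, plus strand) had 105, 104 and 72.6 CPM in crizotinib livers, against 63.1, 171 and 66.97 CPM in control livers. All 3 crizotinib libraries lay between the controls, and the log2 fold change was -0.099 ± 0.45 (SE) at an edgeR adjusted p of 0.930. It was 0.21 with limma on log2(FPKM + 1), 0.24 on log2(FPKM + 0.1) and 0.50 without control replicate 2, so no direction can be given. Nlrc5 (ENSMUSG00000074151, chromosome 8, 94434356 to 94527272, plus strand) had 19.8, 22.3 and 28.8 CPM in crizotinib livers, against 29.2, 21.1 and 16.2 CPM in control livers. The transactivator was not low in crizotinib replicates 1 and 2, where B2m, Tap1 and the inducible proteasome genes were lowest. Its log2 fold change was 0.095 ± 0.30 (SE) at an edgeR adjusted p of 0.899, with a 95% interval of -0.60 to 0.79.

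Some of these genes overlap other annotated genes, and strand handling in the counting was not given in the sources used here. Tap1 and Psmb9 share 212 exonic bases on opposite strands. Tapbp shares 904 of its 3628 exonic bases with the antisense gene Gm19412, and Psmb8 shares 498 of 3381 with the antisense gene Gm20496. Tap2 shares 533 of 3781 with Gm15821 on the opposite strand. Reads of either gene in such stretches cannot be told apart without strand, while B2m and Psmb10 share no exonic base with an opposite gene.

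Other class I heavy chains and related molecules showed no called change. Of 22 listed genes 18 were tested, 0 were called by edgeR, and their log2 fold changes had a median of -0.47. At an unadjusted p below 0.05, 3 were lower and 1 higher, where 7.25% of all tested genes were lower. Crizotinib replicates 1 and 2 were below every control in 7 of the 18, where 25.1% of all tested genes had that order. H2-Q10, a secreted class I molecule made by hepatocytes, had 661, 807 and 1284 CPM in crizotinib livers, against 919, 1145 and 990.4 CPM in control livers. It was low in the same libraries as H2-K1 and high in crizotinib replicate 3, with a log2 fold change of -0.15 at an edgeR adjusted p of 0.889. H2-T24 had a log2 fold change of -2.58, H2-M3 of -0.95 and H2-T10 of -1.11 (edgeR adjusted p = 0.206, 0.260 and 0.323). H2-T10 shares 50.4% of its 50-base stretches with other genes, so its value is uncertain. Among the molecules that pair with B2m, Fcgrt, the neonatal Fc receptor heavy chain, had 55.3, 94.7 and 81.1 CPM in crizotinib livers, against 86.1, 138 and 130 CPM in control livers. Hfe, which acts in iron sensing, had 40.8, 55.0 and 37.1 CPM in crizotinib livers, against 25.6, 31.1 and 23.8 CPM in control livers. Hfe thus lay higher without overlap, opposite to B2m, with a log2 fold change of 0.72 at an edgeR adjusted p of 0.263.

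Genes of peptide trimming and loading and of the proteasome core showed no called change. Of 13 trimming and loading genes edgeR called 0, 0 had an unadjusted p below 0.05, and the median was 0.35. Of the 13, 2 were higher without overlap, where 10.7% of all tested genes were, and Tpp2, a peptidase, was lower without overlap at a log2 fold change of -0.26. Calr, calreticulin, had a log2 fold change of 0.63 at an edgeR adjusted p of 0.460 and Pdia3, which forms the disulfides of the heavy chain, of 0.51 at an edgeR adjusted p of 0.527. Uggt1, a glycoprotein folding sensor, was at 0.60 and Nrd1, a peptidase, at 0.52 (edgeR adjusted p = 0.466 and 0.425). Of 19 proteasome genes outside the inducible subunits edgeR called 0, 0 had an unadjusted p below 0.05, and the median was 0.067. Without crizotinib replicate 3, edgeR called 1 lower, where 4.72% of all tested genes were called lower, and the median was -0.22. Psme1 and Psme2, the interferon-inducible PA28 activator chains, had log2 fold changes of -0.59 and -0.64 (edgeR adjusted p = 0.571 and 0.533). Psme2 had 21.98, 23.9 and 67.9 CPM in crizotinib livers, against 59.9, 64.0 and 53.9 CPM in control livers. It therefore had the same split between crizotinib libraries as Psmb9 and Psmb10. Crizotinib replicates 1 and 2 were below every control in 7 of the 19 genes, where 25.1% of all tested genes had that order. Psme3 and Psme4, other activators, were at 0.44 and 0.47 (edgeR adjusted p = 0.454 and 0.567).

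Regulators of the class I genes showed no common direction. Of 28 listed genes 27 were tested, edgeR called 0, 2 were lower and 4 higher at an unadjusted p below 0.05, and the median was -0.00027. Over all tested genes, 7.25% were lower and 1329 of 16492 higher at that level. Without crizotinib replicate 3, edgeR called 4 higher and 1 lower. In that fit 8.83% of all tested genes were called in either direction and 4.72% lower. Irf1, which binds the class I interferon element, had 14.5, 25.1 and 49.7 CPM in crizotinib livers, against 48.4, 46.5 and 37.2 CPM in control livers. It was lowest in crizotinib replicates 1 and 2 and highest in crizotinib replicate 3, with a log2 fold change of -0.56 at an edgeR adjusted p of 0.569. Rfx5, a subunit of the promoter complex that NLRC5 joins, was at -0.52 at an edgeR adjusted p of 0.559. Irf8, an interferon regulatory factor of myeloid cells, was at -1.08 at an edgeR adjusted p of 0.148, with no overlap. Ptpn2, a tyrosine phosphatase, was at 1.25 and Socs1, an inhibitor of JAK kinases, at 3.81 (edgeR adjusted p = 0.153 and 0.213). The Socs1 estimate rested on 27.7 CPM in crizotinib replicate 2, next to 1.68 and 1.03 CPM in crizotinib replicates 1 and 3, and to 0.687, 1.02 and 0.445 CPM in control livers. Nfkb2, an NF-kappa-B subunit, was at 1.73 at an edgeR adjusted p of 0.197.

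Interferon-stimulated genes were split between libraries inside both groups. Of 27 genes edgeR called 0, and the median was -0.54. At an unadjusted p below 0.05, 2 were lower, where 7.25% of all tested genes were. Crizotinib replicates 1 and 2 were below every control in 13 of the 27, against 25.1% of all tested genes. Without crizotinib replicate 3, edgeR called 4 lower, where 4.72% of all tested genes were called lower, and the list's median was -2.34. The median deviation of the list from the control mean, in log2(CPM + 0.5), was -2.11, -1.08 and 1.09 in crizotinib livers, against -0.88, 1.42 and -0.65 in control livers. Crizotinib replicate 3 and control replicate 2, the highest libraries on this list, were also the libraries in which Tap1, Psmb9 and Psmb10 were highest. The list's summed level was 295, 658 and 2035 CPM in crizotinib livers, against 683, 3362 and 928 CPM in control livers. Its part in the class I values was not tested. Gbp4 and Gbp9, interferon-inducible GTPases, had log2 fold changes of -1.51 and -2.41 (edgeR adjusted p = 0.280 and 0.300), Bst2, tetherin, of -1.65 and Cxcl10, an interferon-induced chemokine, of 1.58 (edgeR adjusted p = 0.360 for each).

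**Figure D4:**
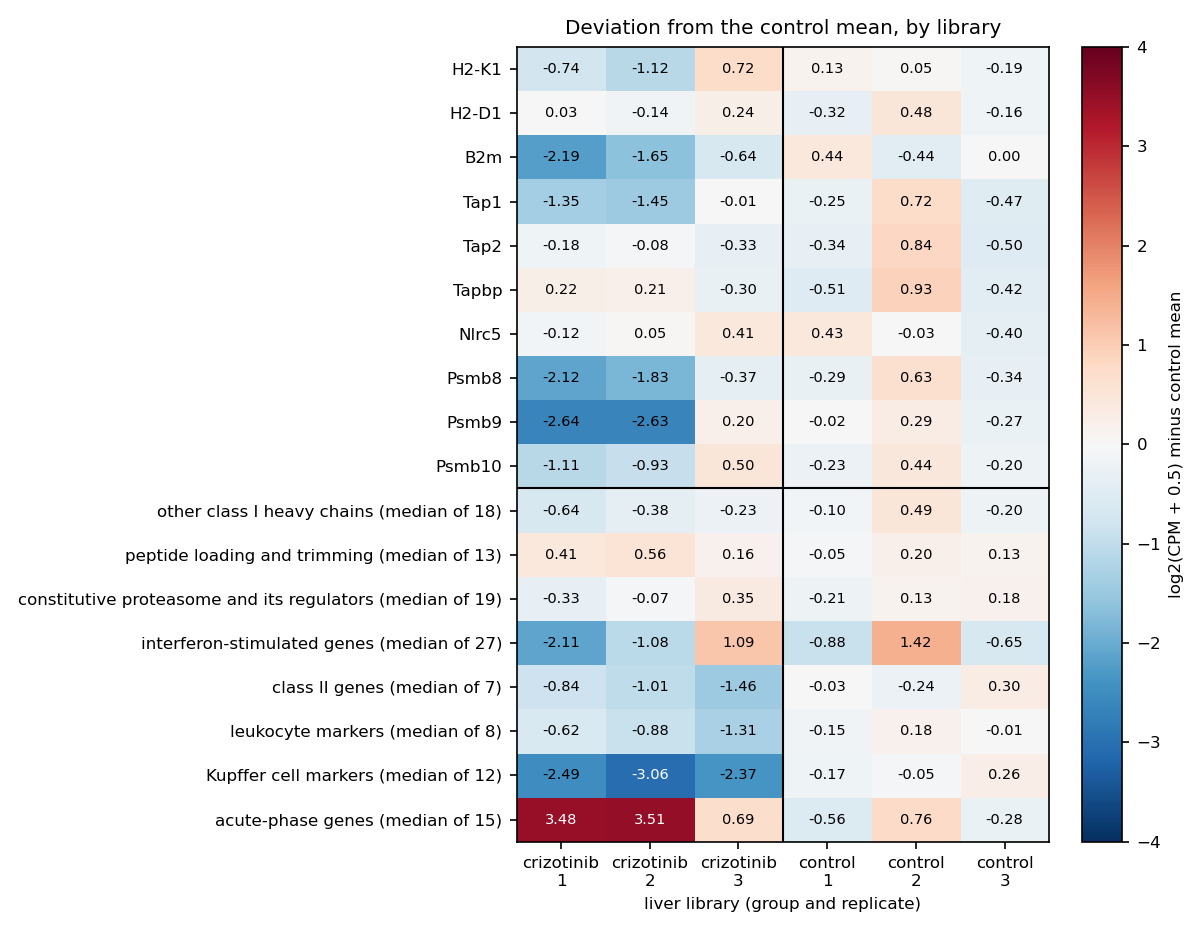
Deviation of each of the 10 genes (upper rows), and the median deviation of 8 other gene lists (lower rows), from the control mean in log2(CPM + 0.5), for each library; red is above and blue below the control mean. B2m, Tap1 and the Psmb genes are blue in crizotinib replicates 1 and 2, interferon-stimulated genes are red in crizotinib replicate 3 and control replicate 2, and class II, leukocyte and Kupffer rows are blue in all 3 crizotinib libraries.

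Class II genes, which present peptides taken up from outside the cell and are carried by macrophages, dendritic cells and B cells, were low in all 3 crizotinib libraries. All 7 listed class II genes were lower without overlap, where 10.3% of all tested genes were. Their median was -1.16, edgeR called 0 of them, and 6 were lower at an unadjusted p below 0.05, where 7.25% of all tested genes were. Without crizotinib replicate 3, edgeR called 1 of the 7 lower, where 4.72% of all tested genes were called lower. H2-Aa and H2-Eb1, chains of class II molecules, had log2 fold changes of -1.04 and -1.24 (edgeR adjusted p = 0.193 and 0.148). H2-DMa, which loads class II peptides, was at -1.16 and Ctss, the protease cathepsin S, at -2.32 (edgeR adjusted p = 0.167 and 0.0540). In crizotinib replicate 3 the class II median deviation was -1.46, where the median over the 10 class I genes was 0.096.

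Summed levels of Kupffer, leukocyte and T and NK cell markers were lower in every crizotinib library than in any control. The same held for the sums of dendritic cell, stellate cell and hepatocyte markers. Hepatocyte markers summed to 38352 to 45676 CPM in crizotinib libraries against 67424 to 84453 CPM in control libraries. That sum does not stand for the hepatocyte list as a whole. Of its 11 markers, 5 had estimates below 0 and 6 above, with a median of 0.15. Alb was at -1.48 and Tat, in the other direction, at 3.31 (edgeR adjusted p = 0.359 and 0.147). In bulk tissue, fewer cells of a type and less RNA per cell cannot be told apart. Of 12 Kupffer cell markers edgeR called 7 lower, where 0.249% of all tested genes were called lower. Their summed level was 40.9 to 72.6 CPM in crizotinib libraries against 390 to 506 CPM in control libraries. Clec4f, a Kupffer cell lectin, had a log2 fold change of -3.45 at an edgeR adjusted p of 0.0430, and C1qb, C1qc and Folr2 passed the test as well (edgeR adjusted p = 0.0345, 0.0361 and 0.0431). Of 8 pan-leukocyte markers edgeR called 0 and 5 were lower at an unadjusted p below 0.05, with sums of 57.7 to 87.8 CPM in crizotinib libraries against 97.6 to 162 CPM in control libraries. Ptprc, CD45, had a log2 fold change of -0.54 at an edgeR adjusted p of 0.445. Of 14 T and NK cell markers 13 were tested, edgeR called 0, and 10 were lower at an unadjusted p below 0.05. Over all tested genes 7.25% were lower at that level. The T and NK cell sum was 2.44 to 3.55 CPM in crizotinib libraries against 13.5 to 18.3 CPM in control libraries. Cd8b1 had 0 counts in every crizotinib library, but only 16, 16 and 18 counts in control libraries, near the floor. Without crizotinib replicate 3, edgeR called 11 of the Kupffer cell, 3 of the T and NK cell and 1 of the leukocyte markers lower. In that fit 4.72% of all tested genes were called lower. The part of these cells in the class I values was not tested.

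The other marker lists held no called gene by edgeR. Dendritic cell markers (7 tested) had a median of -1.24 and sinusoidal endothelial markers (10 tested) of -1.11, with 3 and 5 lower at an unadjusted p below 0.05, where 7.25% of all tested genes were. Stellate cell markers (10 tested) had a median of -1.84, with 8 lower at that level. B cell markers (6 tested) had a median of 0.22, cholangiocyte markers (7 tested) of 0.77 and hepatocyte markers (11 tested) of 0.15, with 0, 1 and 2 genes at an unadjusted p below 0.05. Neutrophil markers (6 tested) had a median of 1.92, with 3 higher at that level. Acute-phase genes (15 tested), secreted by hepatocytes in inflammation, had a median of 2.84, edgeR called 0 and 15 were higher at that level. Over all tested genes, 1329 of 16492 were higher at that level. Without crizotinib replicate 3, edgeR called 14 of the 15 acute-phase genes higher, 2 of the neutrophil markers, 1 cholangiocyte marker and 1 hepatocyte marker higher, and 4 stellate cell markers lower. In that fit 8.83% of all tested genes were called in either direction and 4.72% lower. On the scale of deviations from the control mean the acute-phase median stood at 3.48, 3.51 and 0.69 in crizotinib livers, against -0.56, 0.76 and -0.28 in control livers. The libraries with the highest acute-phase levels were thus the libraries with the lowest B2m, Psmb8, Psmb9 and Tap1 levels, and the part of the acute-phase response in these values was not tested.

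The 10 genes differed in how closely each followed their common profile, the mean over them of centred log2(CPM + 0.5) in the 6 libraries. Pearson's r with that mean, in which each gene takes part, was 0.991 for Tap1, 0.978 for Psmb8, 0.959 for Psmb9 and 0.957 for Psmb10, 0.297 for Nlrc5 and 0.0907 for Tapbp. Among 8860 other genes with a mean of at least 5 CPM, the most alike were Arhgef37, Uba7, Pml, Pgghg, Selenow, Eif4a2, Pbld1 and Plscr2, with r of 0.978 to 0.993. Uba7, which activates the ubiquitin-like protein ISG15, had 6.87, 9.46 and 36.4 CPM in crizotinib livers, against 29.5, 56.8 and 18.0 CPM in control livers. Pml, which builds nuclear bodies, had 11.2, 11.8 and 29.4 CPM in crizotinib livers, against 30.0, 37.8 and 23.5 CPM in control livers. These correlations are a description over 6 libraries that share the group split, picked as the highest of many.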

How the data were processed

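The counts deposited by the authors, per the file headers, were whole numbers per gene and library that had not been normalized, and the FPKM deposited by the authors were fragments scaled to gene length and library depth. Per the labels' protocols, 1.3 µg of total RNA entered a SMARTer mRNA-seq kit. No aligner or counting tool is named there, and the annotation and the handling of strand were not given in the sources used here. Coordinates equalled those of GENCODE M21 (GRCm38) for 89.6% of 26060 identifiers found in it and for 8 of the 10 members.

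Library sizes were adjusted with TMM factors, and genes were filtered with filterByExpr (minimum count 10, minimum total 15; 16492 genes kept) and tested with edgeR 4.0.16 in R 4.3.3 (quasi-likelihood, two-sided, Benjamini-Hochberg, threshold 0.05). The common biological coefficient of variation was 0.470. Alternatives used DESeq2 1.42.0, limma 3.58.1 and libraries left out. The edgeR steps alone were run on simulated counts with known fold changes. No recovery rate is given here, so the size of change that could be detected is not stated.

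The members and the 17 other gene lists (232 of 233 symbols found, 1 by synonym) were chosen with earlier results of these data known. Genes named from a list are those with the 4 smallest p, beside Tpp2, named for its lack of overlap, and a few fixed names. Of these names 1, and of the motifs planned for the promoters 1, are not reported here. Intervals are 95%.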

Additional observations from a re-analysis of the deposited data

How the results depend on the processing

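No member was called under DESeq2, DESeq2 size factors, no filter on low counts, limma on log2(FPKM + 1) or log2(FPKM + 0.1), removal of mitochondrial genes or the replicate block. The count over all genes was 56, and it was 1058 with DESeq2, 0 with the replicate block, 0 to 1504 with 1 library left out (1504 without crizotinib replicate 3, 0 or 3 otherwise) and 1718 for crizotinib replicates 1 and 2 against control replicates 2 and 3. With 1 library left out, 0 to 2 members were called and the members' median was between -1.02 and -0.15; it was -1.05, with 3 called, when crizotinib replicate 3 and control replicate 1 were both left out. That setting gave -2.25 for Psmb8, -2.81 for Psmb9, -1.21 for Psmb10 and -0.27 for H2-D1. H2-D1 stood at -0.0055 with DESeq2, -0.0021 with DESeq2 size factors and -0.012 without mitochondrial genes. Tapbp stood at 0.21 and 0.24 on the FPKM scales and at 0.045 with the replicate block. With 1 library left out the log2 fold change ranged from -0.95 to 0.17 for H2-K1, -0.15 to 0.26 for H2-D1, -1.96 to -1.10 for B2m, -1.54 to -0.46 for Tap1, -0.58 to 0.20 for Tap2, -0.36 to 0.50 for Tapbp, -0.093 to 0.33 for Nlrc5, -2.08 to -0.95 for Psmb8, -2.78 to -0.63 for Psmb9 and -1.09 to -0.082 for Psmb10. The lowest values of H2-K1, B2m, Tap1 and the Psmb genes were those without crizotinib replicate 3. B2m, Tap1, Psmb8, Psmb9 and Psmb10 were below 0 in all 14 alternatives. The causes were not tested. The replicate numbers are not known to pair animals: deviations of same-numbered libraries correlated at -0.149, 0.164 and -0.0902. With 3 libraries per group, the narrowest 95% interval among the members was that of Nlrc5, -0.60 to 0.79.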
